A study of Mus musculus with 6 samples.

Results

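The genes described here are 51 mouse genes of DNA replication and S phase, the part of the cell cycle in which the genome is copied. They were taken from a fixed list of symbols covering origin licensing, helicase activation, polymerases, clamp loading, nucleotide supply and S phase entry, and all 51 were found among the 41214 rows of the deposited gene table. The table holds RNA-seq values of endothelial cells sorted from embryonic mouse hearts in 3 groups of 2 libraries each, KO, het and wt, which lost both copies, 1 copy or no copy of Dll4, the gene of a Notch ligand. KO embryos came from Dll4flox/flox Pdgfb-iCreERT2-IRES-EGFP mice mated with Dll4 flox/flox females (genotype label Dll4-/-). Het embryos came from Dll4flox/flox Pdgfb-iCreERT2-IRES-EGFP mice mated with wildtype (Dll4+/-), and wt embryos came from Pdgfb-iCreERT2-IRES-EGFP mice mated with wildtype females, with no floxed allele. All 3 groups therefore carried the transgene, in which Pdgfb regulatory sequence drives, in endothelium, green fluorescent protein and a Cre enzyme that tamoxifen switches on. All received tamoxifen on embryonic day E13.5, were collected on E14.5 and were sorted for CD31 and green fluorescence. The fluorescence marks cells that express the transgene, not cells in which a floxed allele was recombined. The labels mention several litters but do not say whether a library is 1 heart or a pool, so p-values measure the spread between these libraries.

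Before S phase, the origin recognition complex, Cdc6 and Cdt1 load rings of the MCM helicase onto DNA. In S phase, Cdc45 and the GINS complex join MCM to form the active helicase, polymerases copy both strands behind it, and the PCNA clamp, placed by the RFC loader, keeps the polymerases on the template. Many of these genes are transcribed before and during S phase under E2F transcription factors, and in bulk RNA they are used as markers of cycling cells. In the developing coronary vessels, Notch signalling through Dll4 is known to accompany arterial differentiation and withdrawal of endothelial cells from the cell cycle.

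Dll4 followed the labels. It had 19.4 and 13.7 CPM (counts scaled to library size with TMM factors) in the KO libraries, 81.2 and 85.9 CPM in the het libraries and 196 and 183 CPM in the wt libraries, a log2 fold change of -3.50 ± 0.16 in KO against wt and -1.18 ± 0.15 in het against wt (± SE throughout). Total counts were 6501798 and 4988014 in KO, 1537908 and 3165552 in het, and 2521534 and 1732136 in wt, and the members took between 5795 and 47510 counts per library. The KO libraries stood apart from all others in Lars2, which took 0.0572% and 0.0611% of counts in KO, 17.1% and 16.4% in het and 16.4% and 16.7% in wt. Library preparation and genotype cannot be told apart for such a difference, because it divides the libraries as the KO genotype does. Summed over 10 endothelial markers, the level was 5591 to 5672 CPM in KO, 6082 to 6531 CPM in het and 6561 to 6790 CPM in wt, and no marker was at 0. The lower KO sum rested on Cdh5 (VE-cadherin), with 421 and 381 CPM in KO, 1808 and 1910.0 CPM in het and 1981 and 1928 CPM in wt: without it, a sum added after its values were seen, the level was 5209 to 5251 CPM in KO, 4274 to 4622 CPM in het and 4633 to 4809 CPM in wt. Kdr and Tek were called higher and Cdh5, Erg and Emcn lower in KO against wt. Summed over 13 cardiomyocyte markers it was 50.6 to 58.2 CPM in KO, 189 to 234 CPM in het and 112 to 120.3 CPM in wt, with Ryr2 at 0 in 5 of 6 libraries. The sum over 11 mural and fibroblast markers was 117 to 227 CPM in KO, 284 to 373 CPM in het and 109 to 194 CPM in wt, and Tcf21, Cspg4 and Pdgfrb were at 0 in 2, 2 and 1 of 6 libraries. Over 10 macrophage and blood markers the sum was 35.1 to 71.2 CPM in KO, 99.8 to 326 CPM in het and 51.8 to 127 CPM in wt, with Itgam at 0 in 3 of 6 libraries. Over 5 epicardial markers it was 73.3 to 76.5 CPM in KO, 105 to 122 CPM in het and 102 to 107 CPM in wt, with Upk3b at 0 in 3 libraries and Tbx18, Aldh1a2 and Msln each at 0 in 1. Over 9 erythroid markers, which overlapped among all groups, it was 184 to 237 CPM in KO, 118 to 379 CPM in het and 146 to 417 CPM in wt, with Hbb-bh1 at 0 in 6 libraries, Slc4a1 in 4, and Hba-x and Hbb-y in 1 each. Cardiomyocyte and epicardial sums were thus lower in KO than in wt without overlap, and the part of these other cells in the values below was not tested.

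Promoter windows of 300 bases, from 250 before to 50 after a RefSeq gene start on GRCm38.p6, were present for 41 of the 51 members, which have 49 windows in all. The shown windows are those of the 4 members with the smallest adjusted p in KO against wt among those with a match to the E2F motif, spelled TTTNGCGC or TTTCCCGC and searched on both strands, and that of Pcna, the clamp, which was added after its values had been seen. Capitals mark the matches, and each sequence is read 5′ to 3′ on the strand of its gene. Pold1 (minus strand, chr7:44548766-44549065) encodes the catalytic subunit of DNA polymerase delta. Dnmt1 (minus strand, chr9:20952574-20952873) encodes the maintenance DNA methyltransferase, and Uhrf1 (plus strand, chr17:56304063-56304362) the factor that brings it to newly copied DNA. Mcm3 (minus strand, chr1:20820263-20820562) encodes an MCM helicase subunit, and the window of Pcna (minus strand, chr2:132253131-132253430) held no match.
Pold1: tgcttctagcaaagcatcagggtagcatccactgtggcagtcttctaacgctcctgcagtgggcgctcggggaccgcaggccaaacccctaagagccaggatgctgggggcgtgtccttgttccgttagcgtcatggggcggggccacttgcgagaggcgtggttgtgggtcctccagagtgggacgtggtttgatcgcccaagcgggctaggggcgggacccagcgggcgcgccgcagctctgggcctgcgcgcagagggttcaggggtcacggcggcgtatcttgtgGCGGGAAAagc
Dnmt1: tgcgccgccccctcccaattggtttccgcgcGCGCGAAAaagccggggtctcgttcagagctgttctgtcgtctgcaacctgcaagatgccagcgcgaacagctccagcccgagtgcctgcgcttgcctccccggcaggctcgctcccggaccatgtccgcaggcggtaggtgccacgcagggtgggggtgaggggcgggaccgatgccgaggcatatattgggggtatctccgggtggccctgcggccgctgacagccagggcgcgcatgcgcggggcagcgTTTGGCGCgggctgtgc
Uhrf1: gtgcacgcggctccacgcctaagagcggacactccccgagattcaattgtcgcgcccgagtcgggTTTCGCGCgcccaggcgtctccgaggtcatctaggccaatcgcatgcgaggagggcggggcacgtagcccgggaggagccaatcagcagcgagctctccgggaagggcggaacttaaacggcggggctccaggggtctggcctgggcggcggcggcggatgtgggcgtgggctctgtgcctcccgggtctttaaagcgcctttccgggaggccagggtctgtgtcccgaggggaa
Mcm3: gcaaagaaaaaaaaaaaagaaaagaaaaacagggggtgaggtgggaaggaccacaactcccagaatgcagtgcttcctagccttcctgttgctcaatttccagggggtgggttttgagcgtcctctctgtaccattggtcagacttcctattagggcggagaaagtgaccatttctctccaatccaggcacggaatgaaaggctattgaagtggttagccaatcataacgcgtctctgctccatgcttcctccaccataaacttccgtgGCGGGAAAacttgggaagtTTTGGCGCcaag
Pcna: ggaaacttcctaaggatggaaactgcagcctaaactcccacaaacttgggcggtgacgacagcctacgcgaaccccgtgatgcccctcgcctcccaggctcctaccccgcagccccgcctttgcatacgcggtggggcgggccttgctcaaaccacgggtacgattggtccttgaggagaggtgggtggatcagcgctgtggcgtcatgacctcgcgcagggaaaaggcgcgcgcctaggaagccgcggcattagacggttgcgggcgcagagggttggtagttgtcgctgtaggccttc

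Counted from the first transcribed base as 1, the match of Pold1 began at position 40 and those of Mcm3 at 20 and 39. In Dnmt1 a match began at position -219 and another at 34, and in Uhrf1 the match began at -185. An E2F match was present in 17 of 49 member windows, or 34.7% (95% Wilson interval 22.9% to 48.7%, counting error only), against 4.54% of the 10958 windows of all genes tested and 2.39% of all 32851 windows. Within the members the share was 36.4% of the 33 windows of genes called higher in KO than in wt and 31.2% of the 16 windows of members not called, and the intervals, 22.2% to 53.4% and 14.2% to 55.6%, overlapped. The CCAAT box bound by NF-Y was found in 59.2% of member windows, 37.9% of windows of genes tested and 37.4% of all windows. The cell cycle homology region TTTGAA was found in 12.2% of member windows, against 11.9% and 17.9%, and the E-box CACGTG in 12.2%, against 10.1% and 7.15%. These motifs are exact letter matches, not binding sites, and windows of 1 gene can share bases. The last 20 bases of 43 of the 49 windows lay inside a GENCODE transcript of the same gene and strand.

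**Figure D1:**
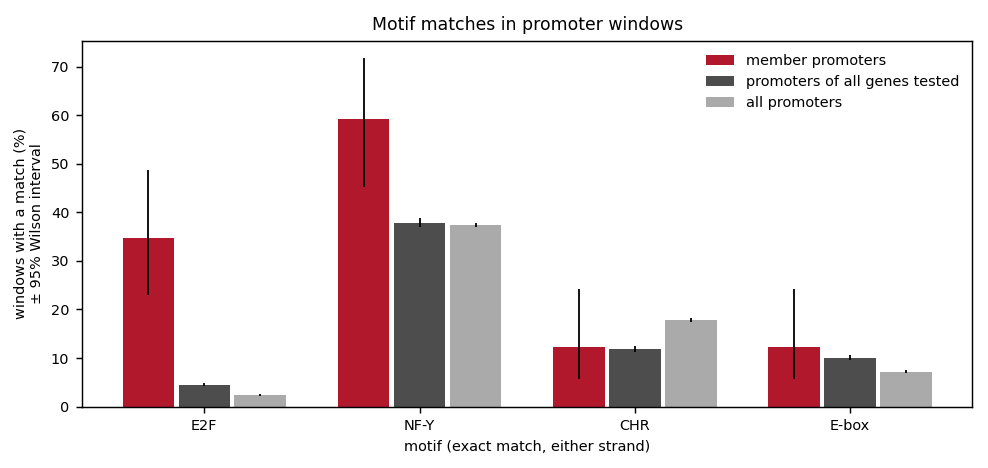
Share of promoter windows (y axis, percent) with an exact match to each of 4 motifs on either strand, for the 49 windows of members, the 10958 windows of all genes tested and all 32851 windows. Lines are 95% Wilson intervals. For E2F the member share is 34.7% and the shares of the other sets are 4.54% and 2.39%; for CHR the members (12.2%) and the genes tested (11.9%) lie close together.

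In KO against wt, 29 of the 51 members rose and 0 fell at an adjusted p under 0.05 (edgeR quasi-likelihood F test, Benjamini-Hochberg over 10952 genes), while 14.7% of all genes tested were called higher and 17.3% lower. All 51 members passed the filter on low counts. The role groups described below hold few genes each, so their counts are to be read beside these shares of all genes. The median log2 fold change of the members was 0.57, with a range from -0.28 to 1.48, against -0.02 for all genes tested, and 47 of 51 values were above 0, as were 49.1% of those of all genes. Both KO libraries lay above both wt libraries for 37 members (72.5%) and below them for 2, whereas the shares of all genes were 33.2% above and 34.5% below. The summed level of the members was 6170 and 6177 CPM in KO, 4127 and 4284 CPM in het, and 4037 and 3808 CPM in wt, so that KO stood at 1.57 times wt and het at 1.07 times wt. In sorted bulk RNA, a larger share of cells in S phase and more of these transcripts per cell cannot be told apart. For the members too, library preparation and genotype cannot be told apart, because the KO libraries also stood apart in Lars2. Leaving out any 1 library kept the number of members called higher between 21 (without wt replicate 5) and 31, and leaving out Lars2, mitochondrial, 7SL and 7SK genes gave 30. Of the 29, 20 were called in each of 17 other settings, while Orc1, Gins3, Pola1, Pola2, Pold2, Rfc5, Rpa1, Rpa2 and Timeless lost the call in at least 1 of them.

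**Figure D2:**
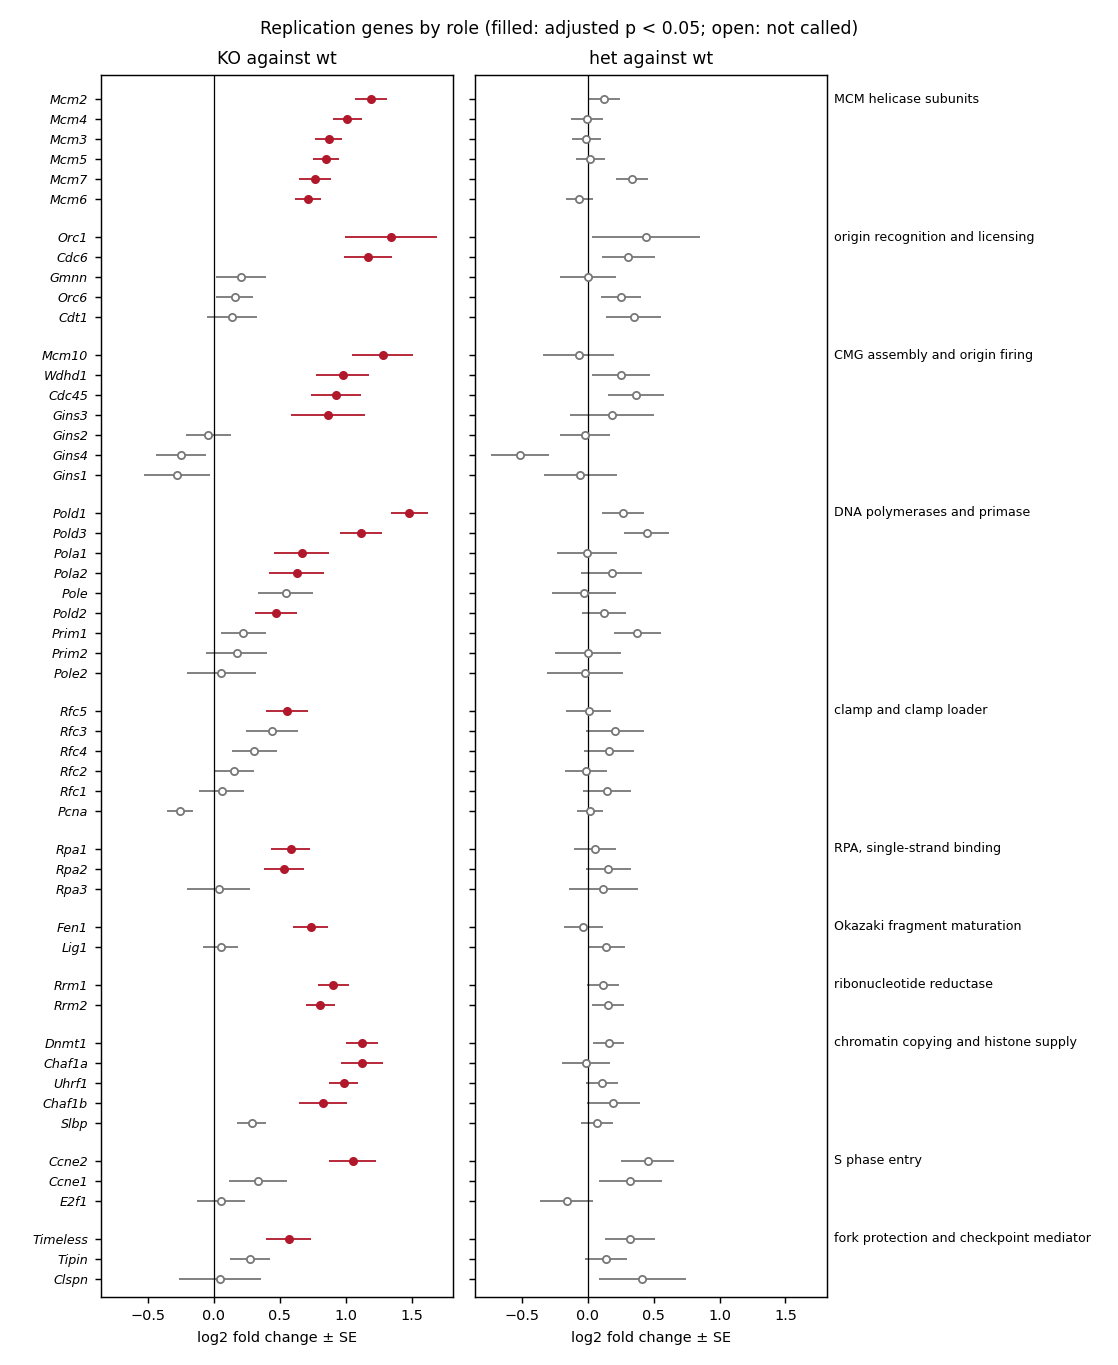
Log2 fold change of each member (x axis) with its standard error, by role, in KO against wt (left) and het against wt (right). Filled points have an adjusted p under 0.05. On the left 29 points are filled and all lie above 0, and on the right none is filled.

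The 6 subunits of the MCM2-7 helicase, the motor that unwinds DNA at the fork, all rose in KO against wt, by 0.71 to 1.19 on the log2 scale with a median of 0.86. Mcm2 had 299 and 289 CPM in the KO libraries, 130.3 and 148 CPM in the het libraries and 119.9 and 139 CPM in the wt libraries. Its log2 fold change in KO against wt was 1.19 ± 0.12 (adjusted p = 1.11e-07). The KO values lay above all others, while het and wt overlapped. Mcm4 had 258 and 257 CPM in KO, 128 and 127 CPM in het and 128 and 127 CPM in wt, a log2 fold change of 1.01 ± 0.11 (adjusted p = 5.10e-07). Mcm3 had 421 and 432 CPM in KO, 217 and 244 CPM in het and 247 and 218 CPM in wt, and its log2 fold change was 0.87 ± 0.10 (adjusted p = 1.84e-06). For both genes het and wt overlapped and KO stood clear. Mcm5 had 322 and 321 CPM in KO, 180.2 and 181 CPM in het and 179 and 178 CPM in wt, a log2 fold change of 0.85 ± 0.10 (adjusted p = 1.88e-06). Mcm6 had 413 and 433 CPM in KO, 243 and 249.9 CPM in het and 269 and 246 CPM in wt, a log2 fold change of 0.71 ± 0.10 (adjusted p = 1.20e-05). Replicates of a group differed little in both genes, and the KO libraries exceeded all others. Mcm7 averaged 212 ± 14.2 CPM in KO, 157 ± 3.49 CPM in het and 124 ± 7.74 CPM in wt (SD, n = 2), and both het libraries lay above both wt libraries and below both KO libraries. Its locus overlaps the protein-coding genes Cops6 and Ap4m1, which unstranded counting cannot separate from it. The summed level of the 6 genes was 1.84 times wt in KO and 1.03 times wt in het.

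**Figure D3:**
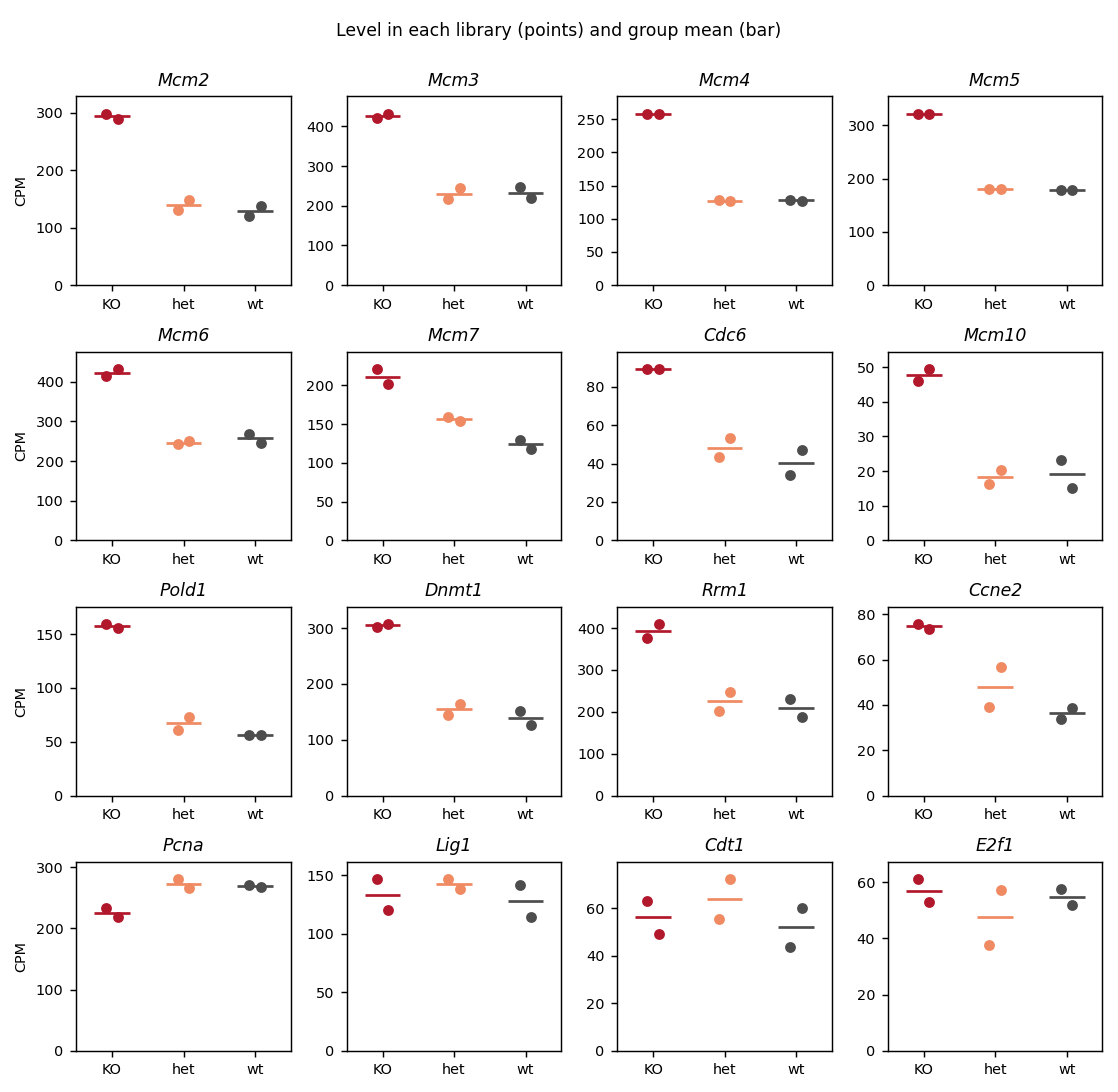
CPM (y axis, from 0) of 16 members in each library, with points for libraries and bars for group means, in the order KO, het, wt. The 6 Mcm genes, Cdc6, Mcm10, Pold1, Dnmt1, Rrm1 and Ccne2 have both KO points above all others; Pcna has both KO points below the others; Lig1, Cdt1 and E2f1 overlap among all groups.

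Among the genes that license origins, 2 of 5 rose, the loaders Orc1 and Cdc6, and the median log2 fold change was 0.20. Cdc6, the ATPase that joins the origin recognition complex to load MCM, had 89.4 and 89.1 CPM in KO, 43.4 and 53.1 CPM in het and 33.8 and 46.8 CPM in wt, a log2 fold change of 1.17 ± 0.18 (adjusted p = 3.09e-05). Orc1, the largest origin recognition subunit, had 23.5 and 20.4 CPM in KO, 5.698 and 15.7 CPM in het and 9.42 and 7.59 CPM in wt, a log2 fold change of 1.35 ± 0.35 (adjusted p = 0.00584). Its het libraries lay on both sides of the wt libraries, and both KO libraries lay above them. Cdt1, which delivers MCM to origins and is destroyed in S phase, had 63.1 and 49.2 CPM in KO, 55.6 and 72.2 CPM in het and 43.7 and 60.1 CPM in wt, so that all groups overlapped (log2 fold change 0.14 ± 0.19, adjusted p = 0.623). Gmnn, which encodes the Cdt1 inhibitor geminin, had 50.8 and 38.9 CPM in KO, 42.02 and 36.99 CPM in het and 39.4 and 38.6 CPM in wt (log2 fold change 0.20 ± 0.19, adjusted p = 0.453). Orc6, the smallest origin recognition subunit, did not pass the test (log2 fold change 0.16 ± 0.14, adjusted p = 0.434). Thus both KO libraries lay above both wt libraries for Cdc6 and Orc1, and also for Orc6, which was not called. The values of Cdt1 and its inhibitor overlapped. Orc1 held few counts, 8 and 45 in the het libraries and 22 and 12 in the wt libraries.

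Of the 7 genes that turn the loaded ring into a working helicase, 4 rose in KO against wt: Mcm10, Wdhd1, Cdc45 and Gins3. Mcm10, needed for origin firing, had 45.97 and 49.5 CPM in KO, 16.4 and 20.2 CPM in het and 23.1 and 15.2 CPM in wt, a log2 fold change of 1.28 ± 0.23 (adjusted p = 0.000193). Cdc45, the helicase co-factor, had 55.9 and 63.6 CPM in KO, 38.5 and 41.9 CPM in het and 34.3 and 27.8 CPM in wt, a log2 fold change of 0.92 ± 0.19 (adjusted p = 0.00062), with no overlap between any pair of groups. Wdhd1, which couples polymerase alpha to the helicase, had a log2 fold change of 0.98 ± 0.20 (adjusted p = 0.00063). The 4 GINS genes, whose proteins form a single complex, differed among themselves: Gins3 rose, by 0.87 ± 0.28 on the log2 scale (adjusted p = 0.0205), while the log2 fold changes of Gins1, Gins2 and Gins4 were -0.28, -0.04 and -0.25 with adjusted p-values of 0.437, 0.883 and 0.364. Gins4 was 1 of the 2 members with both KO libraries below both wt libraries. Scaling by library size alone, which raised the median of all genes to 0.35, put Gins1, Gins2 and Gins4 at 0.08, 0.32 and 0.12.

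In the group of replicative polymerases and primase, 5 of 9 genes rose, with a median log2 fold change of 0.54. They were the members Pold1, Pold2 and Pold3 of polymerase delta, which copies the lagging strand, and Pola1 and Pola2 of polymerase alpha, which lays down the first DNA after the primer. Pold4, a further delta subunit outside the 51, did not pass, with 10.3 and 8.31 CPM in KO, 12.8 and 7.33 CPM in het and 11.6 and 12.02 CPM in wt (log2 fold change -0.34 ± 0.37, adjusted p = 0.53). Pold1 (ENSMUSG00000038644, chr7:44532746-44548849 on GRCm38) had 159.5 and 156 CPM in KO, 61.3 and 72.9 CPM in het and 56.5 and 56.3 CPM in wt. Its log2 fold change of 1.48 ± 0.14 (adjusted p = 8.16e-08) was the largest of the 51 in KO against wt, and no other library came near the KO libraries. Pold3, an accessory subunit of the same enzyme, had 106 and 97.9 CPM in KO, 66.2 and 62.5 CPM in het and 51.8 and 41.1 CPM in wt, a log2 fold change of 1.11 ± 0.16 (adjusted p = 1.53e-05), and the 3 groups did not overlap. Pola1, Pola2 and Pold2 had log2 fold changes of 0.67, 0.63 and 0.47 with adjusted p-values of 0.0173, 0.0311 and 0.0244. Pole and Pole2, of the leading-strand polymerase epsilon, did not pass (log2 fold changes 0.54 and 0.06, adjusted p = 0.0561 and 0.895), nor did the primase genes Prim1 and Prim2 (0.23 and 0.17, adjusted p = 0.325 and 0.607). Whether delta and epsilon genes differ in their change was not tested.

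The clamp and its loader formed the group with the smallest difference in summed level between KO and wt, 1.04 times wt in KO. That sum joins Pcna, with means of 226 CPM in KO and 269.5 CPM in wt, to loader genes whose log2 fold changes were above 0. In this group 1 of 6 genes rose, near the 14.7% of all genes called higher. Of its 6 log2 fold changes 5 were above 0, as were 49.1% of those of all genes. Pcna (ENSMUSG00000027342, chr2:132249162-132253314) encodes the sliding clamp, and it had 234 and 218 CPM in KO, 281 and 266 CPM in het and 271 and 268 CPM in wt. Both KO libraries lay below all others, the opposite of the pattern of the MCM genes. The log2 fold change of Pcna was -0.25 ± 0.10 in KO against wt (adjusted p = 0.0596). In KO against het it was -0.27 ± 0.10 (adjusted p = 0.0464), which made Pcna the only member called lower in a comparison of 2 groups. That call was kept in 3 of 17 other settings. With library size alone the value against het was 0.11 (adjusted p = 0.406). With the trend on transcript length removed it was -0.08 (adjusted p = 0.615). Pcna has the annotated pseudogenes Pcna-ps1 and Pcna-ps2, and RSEM shares ambiguous reads among such copies, so its level is uncertain. Rfc5, a subunit of the pentameric loader, had 87.8 and 87.4 CPM in KO, 51.99 and 65.6 CPM in het and 63.4 and 55.1 CPM in wt, a log2 fold change of 0.56 ± 0.16 (adjusted p = 0.00952). The other loader genes, Rfc1, Rfc2, Rfc3 and Rfc4, had log2 fold changes of 0.06, 0.16, 0.44 and 0.31 and adjusted p-values from 0.0928 to 0.823.

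RPA coats the exposed template, and 2 of its 3 subunit genes rose. Rpa1 had 127 and 131 CPM in KO, 70.5 and 103 CPM in het and 89.5 and 81.6 CPM in wt, a log2 fold change of 0.58 ± 0.15 (adjusted p = 0.00555). Rpa2 had 89.1 and 108 CPM in KO, 81.2 and 71.2 CPM in het and 73.2 and 61.4 CPM in wt, a log2 fold change of 0.53 ± 0.15 (adjusted p = 0.0112). For Rpa3, the smallest subunit, the log2 fold change was 0.04 ± 0.24 (adjusted p = 0.925). Fen1, the nuclease that trims Okazaki fragments, had 124 and 133 CPM in KO, 72.6 and 77.5 CPM in het and 77.1 and 77.2 CPM in wt and rose by 0.73 ± 0.13 (adjusted p = 0.000248). Lig1, the ligase that joins the trimmed fragments, had 146 and 120.4 CPM in KO, 147 and 138 CPM in het and 142 and 115 CPM in wt (log2 fold change 0.05 ± 0.13, adjusted p = 0.811). Fen1 was separated between KO and the rest, and Lig1 overlapped in all groups.

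Both genes of ribonucleotide reductase, the enzyme that makes deoxyribonucleotides, rose. Rrm1, the large subunit, had 375 and 410.0 CPM in KO, 202 and 248 CPM in het and 229.9 and 187 CPM in wt, a log2 fold change of 0.91 ± 0.12 (adjusted p = 7.37e-06). Rrm2, the small subunit whose level limits the enzyme in cycling cells, had 241 and 249 CPM in KO, 152 and 159 CPM in het and 145 and 134 CPM in wt, a log2 fold change of 0.81 ± 0.11 (adjusted p = 1.01e-05). Their summed level was 1.83 times wt in KO and 1.09 times wt in het.

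Of the 5 genes that copy chromatin or supply histones, 4 rose and the median log2 fold change, 0.99, was the highest of the groups. Dnmt1 had 302 and 308 CPM in KO, 145 and 165 CPM in het and 152 and 126 CPM in wt, a log2 fold change of 1.13 ± 0.12 (adjusted p = 2.70e-07). Uhrf1 had 277 and 273 CPM in KO, 164 and 138 CPM in het and 140.4 and 137 CPM in wt, a log2 fold change of 0.99 ± 0.11 (adjusted p = 1.17e-06). Both partners of maintenance methylation therefore stood about as far from wt as the MCM genes did, with het overlapping wt. Chaf1a, the large subunit of the histone chaperone CAF-1, had 105 and 89.7 CPM in KO, 44.9 and 43.97 CPM in het and 46.7 and 42.4 CPM in wt, a log2 fold change of 1.12 ± 0.16 (adjusted p = 1.73e-05). Its partner Chaf1b rose by 0.83 ± 0.18 (adjusted p = 0.00117). Slbp, which binds the stem-loop of histone mRNAs, had a log2 fold change of 0.29 ± 0.11 (adjusted p = 0.0605) and did not pass, although both KO libraries lay above both wt libraries.

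Of the 3 genes for S phase entry, 1 rose. Ccne2, which encodes cyclin E2, had 75.7 and 73.6 CPM in KO, 39.2 and 56.5 CPM in het and 33.8 and 38.6 CPM in wt, a log2 fold change of 1.05 ± 0.18 (adjusted p = 0.000155), and the 3 groups did not overlap. Ccne1, the related cyclin E1, had 35.7 and 32.4 CPM in KO, 25.6 and 39.8 CPM in het and 26.97 and 27.2 CPM in wt (log2 fold change 0.33 ± 0.22, adjusted p = 0.281). E2f1, an activator of many replication genes, had 61.04 and 52.8 CPM in KO, 37.8 and 57.2 CPM in het and 57.4 and 51.9 CPM in wt (log2 fold change 0.05 ± 0.18, adjusted p = 0.852), with all groups overlapping. Among the fork protection genes, Timeless had 65.2 and 68.02 CPM in KO, 59.1 and 53.7 CPM in het and 50.5 and 37.97 CPM in wt and rose by 0.57 ± 0.17 (adjusted p = 0.0143). Its partner Tipin had 116 and 113 CPM in KO, 124 and 88.3 CPM in het and 93.8 and 95.6 CPM in wt (log2 fold change 0.27 ± 0.15, adjusted p = 0.169). Clspn, which encodes the checkpoint mediator claspin, averaged 18.9 ± 3.21 CPM in KO, 25.4 ± 8.34 CPM in het and 17.8 ± 8.15 CPM in wt (SD, n = 2; log2 fold change 0.05 ± 0.31, adjusted p = 0.928). Both KO libraries lay above both wt libraries for Timeless and for Tipin, but of the 3 genes only Timeless passed.

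**Figure D4:**
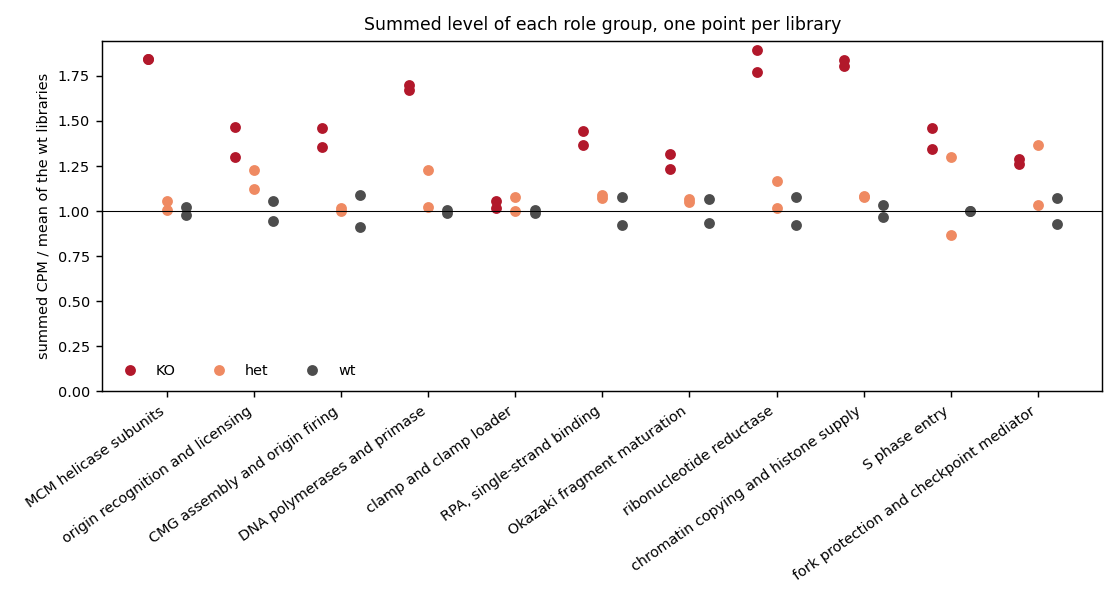
Summed CPM of each role group in each library, divided by the mean of the wt libraries (y axis, from 0), with 1 point per library in the order KO, het, wt. KO points lie between 1.77 and 1.89 for ribonucleotide reductase and near 1.84 for MCM. They lie at 1.01 to 1.06 for the clamp and its loader, where het overlaps both KO and wt. That last sum joins Pcna, which is lower in KO, to loader genes with log2 fold changes above 0.

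In het against wt, 0 of 51 members rose and 0 fell (edgeR, adjusted p under 0.05), against 0.128% of genes called higher and 0.0457% lower; DESeq2 and limma-voom also called 0. At an unadjusted p under 0.05 the count was 5 members, among 8.15% of all genes. They were Mcm7, Pold3, Prim1 and Ccne2, with values above 0 (0.34, 0.45, 0.38 and 0.46 on the log2 scale), and Gins4, below 0 (-0.52), and their adjusted p-values lay between 0.404 and 0.6003. The median log2 fold change of the members was 0.12, with a range from -0.52 to 0.46, against 0.01 for all genes, and 37 of 51 values were above 0, as were 51% of those of all genes. Both het libraries lay above both wt libraries for 11 members (21.6%), which is close to the 19.2% of all genes, and below them for 1 (all genes 18.8%). A p that misses the threshold does not show that het and wt are alike in these genes.

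In KO against het, 25 members rose and 1, Pcna, fell, against 13.9% of genes called higher and 17.2% lower. The call of Pcna was kept in 3 of 17 other settings. The median log2 fold change of the members was 0.45, against -0.02 for all genes. This comparison shares the KO libraries with that of KO against wt and is not independent of it. Both KO libraries lay above both het libraries for 33 members (64.7%, all genes 31.4%) and below them for 3 (all genes 33%). Pold1 differed by 1.21 ± 0.14 (adjusted p = 9.22e-07), Mcm2 by 1.07 ± 0.12 (adjusted p = 4.71e-07) and Mcm10 by 1.35 ± 0.23 (adjusted p = 0.000122). Pole, which was not called in KO against wt, had 58.2 and 45.5 CPM in KO, 26.4 and 40.8 CPM in het and 39.4 and 31.01 CPM in wt and was called here (log2 fold change 0.57 ± 0.21, adjusted p = 0.0442). Timeless, Pola2, Pold2, Gins3 and Rpa2 were called against wt but not against het, where their adjusted p-values lay between 0.0596 and 0.2798; whether their differences from the 2 groups are unequal was not tested. Without het replicate 2 the number of members called higher was 17.

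**Figure D5:**
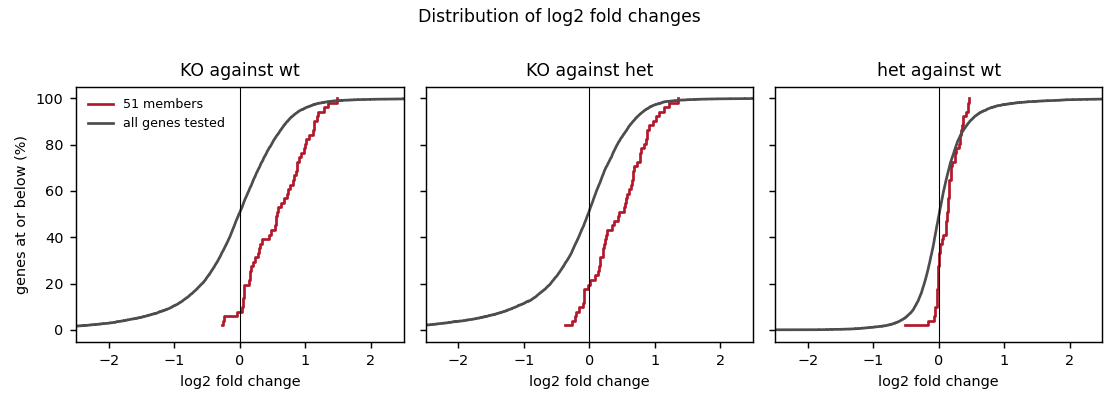
Cumulative share of genes (y axis, percent) at or below a log2 fold change (x axis) for the 51 members and all genes tested, in KO against wt, KO against het and het against wt. The member curve lies to the right of that of all genes in the first and second panels, with medians of 0.57 and 0.45, and close to it in the third, with a median of 0.12.

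Het was also set against the midpoint of KO and wt on the log2 scale, which it would occupy if each lost copy added the same step. For Lars2, high in het and wt and low in KO, het lay 4.28 ± 0.05 above this midpoint. Library preparation and the number of lost copies therefore cannot be told apart in this contrast. Below that midpoint 12 members were called and above it 0, against 3.68% and 7.81% of all genes. They were Mcm2, Mcm3, Mcm4, Mcm5, Mcm6, Mcm10, Pold1, Fen1, Rrm1, Uhrf1, Dnmt1 and Chaf1a, and for each the het mean was nearer to wt than to KO. Mcm4 lay at -0.51 ± 0.10 from the midpoint (log2 scale, adjusted p = 0.00177), and Pold1 was at -0.47 ± 0.13 (adjusted p = 0.0207). The count rested on single libraries, being 5 without het replicate 2 and 5 without wt replicate 4, and Mcm3, Mcm4, Mcm5 and Mcm6 were called under each of 16 other settings. The group means fell in the order KO, het, wt for 29 members (56.9%), an order held by 21.3% of all genes. These shares also carry the rise in KO, since KO against wt was above 0 for 47 of 51 members and 49.1% of all genes. They are no test of a stepwise change, and 0 members were called in het against wt.

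Per kilobase of exon sequence, the MCM subunits, which act as a hexamer with 1 copy of each, were not at equal RNA levels. Mcm3 was highest, with 114 ± 2.16 CPM per kb in KO, 61.5 ± 5.04 in het and 62.01 ± 5.41 in wt, and Mcm2 lowest, with 42.3 ± 0.976 in KO, 20.03 ± 1.83 in het and 18.6 ± 1.903 in wt (SD, n = 2). The ratio of the highest to the lowest was 2.69 in KO, 3.07 in het and 3.34 in wt. It depends on the length used, since dividing by the longest transcript gave 1.74 in KO, 1.90 in het and 1.91 in wt and put Mcm7 or Mcm4 lowest. In GINS the ratio of Gins4 to Gins3 was 2.94 in KO, 4.15 in het and 6.39 in wt, and Gins3 was the GINS gene that rose in KO. These ratios are levels, and no test of the difference between groups was made.

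Members called higher in KO against wt had longer transcripts than those not called, with medians of 3494 and 2572 bases for the longest transcript. Of the 26 members at or above the members' median of 3014 bases, 19 were called (73.1%), and of the 25 shorter ones 10 were called (40%). The same direction held over all genes tested, of which 18.1% of the longer and 9.74% of the shorter were called higher. With the trend on transcript length removed, 32 members were called. The median G+C content was 49.3% in called and 46.7% in uncalled members.

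Further genes of the same processes came from lists of other replication genes, with counts for KO against wt. Of 14 other licensing and firing genes, 6 rose and 0 fell, with a median log2 fold change of 0.47. Mtbp, needed to fire origins, rose by 1.36 ± 0.23 (adjusted p = 0.000126), Topbp1, a scaffold for firing and for the checkpoint, by 0.65 ± 0.12 (adjusted p = 0.0002401), and Cdk2, the S phase kinase, by 0.82 ± 0.16 (adjusted p = 0.000421). Of 13 other fork, clamp and Okazaki fragment genes, 2 rose and 1 fell, which is near the 14.7% and 17.3% of all genes, and the median was -0.06. Chtf18, of an alternative clamp loader, rose by 1.35 ± 0.26 (adjusted p = 0.000366) and Dna2, a flap nuclease, by 1.07 ± 0.28 (adjusted p = 0.00664), whereas Top1, the topoisomerase that relaxes DNA ahead of the fork, had 134 and 148 CPM in KO, 239 and 194 CPM in het and 234 and 206 CPM in wt and a log2 fold change of -0.64 ± 0.12 (adjusted p = 0.00032).

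The next lists hold few genes, and 14.7% of all genes were called higher and 17.3% lower, so small counts in them are near the background. Of 9 other genes of nucleotide supply, 2 rose and 1 fell. Samhd1, which destroys deoxyribonucleotides, had 23.4 and 20.02 CPM in KO, 52.7 and 45.7 CPM in het and 56.5 and 48.7 CPM in wt and fell (log2 fold change -1.28 ± 0.19, adjusted p = 2.83e-05). Dck, a salvage kinase, rose by 0.85 ± 0.16 (adjusted p = 0.000317) and Tyms, the thymidylate synthase, by 0.51 ± 0.13 (adjusted p = 0.00623). Of 12 other E2F and pocket protein genes, 1 rose, the E2F partner Tfdp1 (0.40 ± 0.14, adjusted p = 0.0344), and 0 fell. Of 10 replication checkpoint genes 3 rose and 0 fell: Rad9a (1.24 ± 0.26, adjusted p = 0.000881), of the checkpoint clamp, the phosphatase gene Cdc25a (0.48 ± 0.16, adjusted p = 0.0245) and the kinase gene Wee1 (0.65 ± 0.24, adjusted p = 0.0406). Histone chaperone genes formed a further list, in which 4 of 6 rose and 0 fell, among them Rbbp4 (0.46 ± 0.10, adjusted p = 0.001702), Rbbp7 (0.43 ± 0.10, adjusted p = 0.00182) and Hat1 (0.59 ± 0.14, adjusted p = 0.00276).

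Of 20 genes of mitosis, the stage after S phase, 13 rose and 0 fell in KO against wt. Among all genes tested, 14.7% were called higher and 17.3% lower. The median log2 fold change of the mitosis genes was 0.73, against -0.02 for all genes. Plk1, a mitotic kinase, had 177 and 169 CPM in KO, 142 and 119.7 CPM in het and 73.2 and 81 CPM in wt, and it was called in het against wt as well (0.76 ± 0.14, adjusted p = 0.0193), where no other gene of this list and no replication gene was. Mki67, which encodes the proliferation marker Ki-67, had 156 and 122 CPM in KO, 234 and 247 CPM in het and 241 and 139 CPM in wt and did not pass (-0.47 ± 0.28, adjusted p = 0.294), nor did Top2a, the mitotic topoisomerase (-0.11 ± 0.11, adjusted p = 0.452). These 2 genes, chosen after their values were seen, did not share the separation of KO from wt that most genes of replication and mitosis had. They were not the only exceptions, as 7 of the 20 mitosis genes, these 2 included, were not called.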

How the data were processed

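The authors deposited 1 table of expected counts per gene for 6 libraries, which estimate reads and need not be whole. Per the submitters' processing notes, CASAVA, cutadapt and RSEM were used with build GRCm38; versions are not given in the sources used here. The SMART-Seq v4 and Nextera XT kits named per the labels' protocols do not mark strand, so overlapping and antisense genes cannot be told apart: 28 members overlap another annotated gene, 13 of them a protein-coding one, among which Mcm7, Cdc45, Chaf1a, Fen1, Rfc5 and Ccne2 were called. RSEM divides ambiguous reads, and 13 members held a value that was not whole. The labels give both paired and single-end reads.

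Symbols and positions came from GENCODE M21, and 97.9% of identifiers matched. Expected counts were rounded and tested with edgeR 4.0.16 (R 4.3.3): TMM scaling, filterByExpr with a minimum count of 10, robust quasi-likelihood F tests, two-sided, all 6 libraries, 3 residual degrees of freedom, Benjamini-Hochberg over 10952 genes, threshold 0.05. CPM use TMM-scaled totals, with n = 2 per group. Per-library values are given for the 2 members of each role with the smallest adjusted p, those called lower or off the midpoint, and a fixed set of regulators. Other lists give up to 3 genes by adjusted p. Pole, Pold4, Mki67, Top2a and the cell type markers were given outside these rules. The members and lists were chosen with earlier results of these data known. DESeq2 1.42.0 and limma 3.58.1 served as alternatives, and removing the trend on length was added after seeing the data. The procedure was tested on simulated data. 1 gene was left out of the list of erythroid markers and is not reported here.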

Additional observations from a re-analysis of the deposited data

How the results depend on the processing

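In KO against wt, 24 to 41 members were called higher under the other settings and 21 to 31 when 1 library was left out, against 29. With library size alone the median of all genes rose to 0.35 and that of the members to 0.93, a difference of 0.58. Of the 29 calls, 20 were kept in each of 17 settings, and Orc1, Gins3, Pola1, Pola2, Pold2, Rfc5, Rpa1, Rpa2 and Timeless were lost in some. The number called lower was 1, Pcna, with the C trend removed and with the 2 groups fitted alone. In KO against het, 38 were called higher with library size only, 19 with DESeq2 and 17 to 24 with 1 library left out, against 25. The 1 member called lower there, Pcna, became 0 with RLE size factors, library size only, no filter, DESeq2, without Lars2, mitochondrial, 7SL and 7SK genes, thinned to the smallest total, length trend removed, 2 groups alone, and in each fit that left out a library (0 to 0). Library size only put Pcna at 0.11 in KO against het. The cause was not tested. In het against wt no setting called a member. Off the midpoint, 6 members were called below with DESeq2, 17 with library size only and 5 to 10 with 1 library left out, against 12. Where a group was left with 1 library, that library was assumed to vary like the others. The ratio of highest to lowest level per length, by the longest transcript, was 1.74 for MCM in KO, 1.90 in het and 1.91 in wt, and 5.94 for GINS in wt. The E2F share was 26.5% with the motif TTTCGCGC or TTTGGCGC alone. No paired analysis was possible because wt shares no replicate number with the other groups, and KO and het share only number 2. Thinned to the smallest library total, 28 members were called higher in KO against wt.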
